A study of Homo sapiens with 2 samples.

Results

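The genes HM13, BCL2L1, TPX2, PDRG1, TM9SF4, PLAGL2, POFUT1, KIF3B, ASXL1 and MAPRE1 lie close together on the long arm of chromosome 20, in band 20q11.21, a region that cultured human pluripotent cells often gain. They were chosen by symbol, and all 10 were found among the 22474 genes listed for both states. Their levels were compared between 25 single feeder-free extended pluripotent stem cells (ffEPSCs) and 16 single embryonic stem cells (ESCs). Both states are H9, an established human ESC line, and the ffEPSCs were obtained by converting H9 ESCs. RNA was profiled with Smart-seq2, which copies polyadenylated RNA of a single cell along its full length and amplifies it without molecular barcodes. Each state was 1 deposited sample. The sources used here do not give the number of cultures, the passages or the media.

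Gains of 20q11.21 are among the most frequent acquired changes of human pluripotent stem cells in culture. The gained stretch holds BCL2L1, whose long protein form, BCL-XL, keeps mitochondria from releasing the factors that start apoptosis, and cells with the gain survive passaging better. An extra copy of a stretch usually raises the RNA of most genes on it by a modest factor, whereas an extra whole chromosome does so along its full length. Copy number of DNA was not measured in these samples, so the values below are RNA levels only.

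In the ffEPSC library 9 of the 10 genes were higher than in the ESC library, with a median log2 ratio of 0.47, against 0.04 over the 10825 measured genes, of which 52.9% were higher. The genes outside this stretch on chromosome 20 had a median log2 ratio of 0.38, so the 10 genes lay 0.10 above the rest of their own chromosome. This difference did not keep its direction: it was -0.069 and -0.021 within the sets of cells that hold both states and -0.067 with the 7 ffEPSCs least shifted on other chromosomes, and 0.25 with no floor on low genes. PLAGL2, BCL2L1, KIF3B and ASXL1 had the largest ratios of the 10, from 0.87 to 0.60, and POFUT1 had the smallest, -0.00. The ratio of ASXL1 was below 0 within both of these sets and in the 7 ffEPSCs. Levels are summed counts of all cells of a library, scaled to its gene total (counts per 1000000, CPM), and every log2 ratio is ffEPSC over ESC after adding 1 CPM to both. A gene was measured if it had 5 CPM in at least 1 library. Because each state is 1 sample and its cells are not replicates, the states could not be tested against each other and no p-value is given.

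The ffEPSC library held 374101290 gene counts, between 12507469 and 17811209 in a cell, and the ESC library held 265412149, between 11714517 and 19965639 in a cell. At this depth 3 counts, the limit that a count of 0 allows, are 0.00802 CPM in the ffEPSC library and 0.0113 CPM in the ESC library. All 8 pluripotency markers on the list were measured in both states, with POU5F1 at 1061 CPM in ffEPSCs and 892 CPM in ESCs. All 5 markers of the naive state were at least 2-fold higher in ffEPSCs, TFAP2C for example at 85.7 CPM against 7.75 CPM in ESCs. Of the neural markers 2 of 4 were listed, and their summed level was between 0 and 9.11 CPM in ffEPSCs and between 14.1 and 158 CPM in ESCs, nearly all of it FABP7. Of the blood markers 1 of 3 was listed, CD74, with 0 to 17.4 CPM in ffEPSCs and 24.3 to 130 CPM in ESCs. Of the fibroblast markers 4 of 7 were listed, with summed levels of 32.5 to 406 CPM in ffEPSCs and 60.4 to 634 CPM in ESCs, most of it THY1, which pluripotent cells also express. The trophoblast and endoderm markers, 2 of 4 listed each, summed to at most 18.6 CPM in any ffEPSC and 24.5 CPM in any ESC. The part of these markers in the results below was not tested. Cell names carry a set number whose meaning the labels do not give. Sets 1, 2, 3 and 4 held 3, 9, 2 and 11 ffEPSCs, and sets 1 and 3 held 7 and 9 ESCs, so the states meet only in sets 1 and 3. There were 4 ESCs with under 15000000 gene counts, called shallow here, and they stood apart from the other 12 ESCs in the 10 genes, as given below.

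On GRCh38, with GENCODE version 29, the stretch runs from the start of HM13 to the end of MAPRE1, chr20:31514410-32850405, which is 1336 kb. BCL2L1, PDRG1 and PLAGL2 lie on the minus strand and the other 7 on the plus strand. PLAGL2 and POFUT1 form a divergent pair, transcribed away from each other from neighbouring starts. The sequence between their RefSeq starts is shown because it is the only upstream sequence that a pair of the 10 genes shares, and the stretch upstream of BCL2L1 is shown for comparison. The table of RefSeq promoters (GRCh38.p14) held 8 of the 10 genes. Both sequences are given 5′ to 3′, the first on the plus strand at chr20:32207744-32207879 and the second on the minus strand at chr20:31723964-31724213. Capitals mark GC boxes, GGGCGG on either strand, in the first sequence, and TATAAA in the second.
PLAGL2-POFUT1 gap: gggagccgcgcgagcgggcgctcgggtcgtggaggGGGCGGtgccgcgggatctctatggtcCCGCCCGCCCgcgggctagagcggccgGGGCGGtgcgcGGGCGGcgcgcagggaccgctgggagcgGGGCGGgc
BCL2L1 upstream: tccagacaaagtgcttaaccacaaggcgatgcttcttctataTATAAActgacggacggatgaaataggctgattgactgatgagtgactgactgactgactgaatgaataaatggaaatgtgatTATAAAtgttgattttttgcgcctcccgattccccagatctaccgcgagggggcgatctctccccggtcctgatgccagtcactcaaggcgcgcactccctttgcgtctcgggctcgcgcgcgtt

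The 136 bases between PLAGL2 and POFUT1 were 83.8% G or C and held 6 GC boxes, some of which overlap. A GC box was present in 35.6% of the 35116 RefSeq promoter windows of 136 bases. The 250 bases upstream of BCL2L1 held 2 TATAAA words and 0 GC boxes, and TATAAA was present in 10.7% of promoter windows of 250 bases. These matches describe the letters of the windows and are not shown to be used in these cells.

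BCL2L1, the inhibitor of apoptosis, was at 58.6 CPM in the ffEPSC library and 34.3 CPM in the ESC library, with 95% exact Poisson intervals of 57.8 to 59.4 and 33.6 to 35.1. These intervals cover counting error only. Its lowest, median and highest cells were at 22.5, 55.9 and 104 CPM among ffEPSCs, against 0, 37.5 and 72.0 CPM among ESCs. The log2 ratio was 0.75. The cells of the states overlapped, with 8 of 25 ffEPSCs above every ESC and 2 of 16 ESCs without a count. BCL2L1 is the only one of the 10 genes with 1 CPM in all 25 ffEPSCs but not in all ESCs. Of the ESCs 14 of 16 had it, and the 2 without a count were both shallow. Without the 4 shallow ESCs the log2 ratio was 0.49.

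TPX2, which carries Aurora A kinase to spindle microtubules and activates it, was at 477 CPM in ffEPSCs and 329 CPM in ESCs, a log2 ratio of 0.53. Its cells reached from 75.3 over a median of 440 to 1015 CPM among ffEPSCs, and from 159 over 277 to 633 CPM among ESCs. The ffEPSCs thus held both the lowest and the highest cells. Over cells, TPX2 moved with the mean log2 level of 14 other genes of G2 and mitosis, with a Pearson r of 0.82 over 25 ffEPSCs and 0.76 over 16 ESCs, which share library and depth. That mean had a median over cells of 7.96 in ffEPSCs and 8.004 in ESCs on the log2(CPM + 1) scale.

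MAPRE1, or EB1, which binds the growing plus ends of microtubules, was at 312 CPM in ffEPSCs and 278 CPM in ESCs, a log2 ratio of 0.17. Cells lay between 190 and 513 CPM with a median of 289 in ffEPSCs, and between 89.5 and 365 CPM with a median of 301 in ESCs. MAPRE1 is the only one of the 10 genes whose median cell was lower in ffEPSCs, although 8 ffEPSCs lay above every ESC. KIF3B, a motor subunit of kinesin-2, which carries cargo along microtubules and into cilia, was at 26.1 CPM in ffEPSCs and 16.1 CPM in ESCs, a log2 ratio of 0.66. The lowest, median and highest cells for KIF3B were at 0, 24.2 and 106 CPM in ffEPSCs, and at 0, 15.5 and 34.6 CPM in ESCs.

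HM13 encodes signal peptide peptidase, which cuts the remnants of signal peptides inside the membrane of the endoplasmic reticulum. It was at 285 CPM in ffEPSCs and 226 CPM in ESCs, a log2 ratio of 0.33. Cells ranged from 114 over a median of 276 to 475 CPM in ffEPSCs, and from 54.3 over 220 to 345 CPM in ESCs, and 6 ffEPSCs lay above every ESC. TM9SF4, a membrane protein of the endosomes and the Golgi apparatus, was at 59.5 CPM in ffEPSCs and 44.4 CPM in ESCs, a log2 ratio of 0.41. Its cells lay between 0 and 151 CPM with a median of 54.3 in ffEPSCs, and between 13.8 and 101 CPM with a median of 39.2 in ESCs. POFUT1, which adds O-linked fucose to the EGF repeats of NOTCH receptors, was at 25.9 CPM in both libraries. The median cell of POFUT1 was at 27.0 CPM in ffEPSCs and 23.9 CPM in ESCs, and the highest was at 61.7 CPM in ffEPSCs and 78.1 CPM in ESCs. POFUT1 had 1 CPM in 22 of 25 ffEPSCs and 12 of 16 ESCs, and its highest ESC lay above every ffEPSC.

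PLAGL2, a zinc finger transcription factor, was at 16.2 CPM in ffEPSCs and 8.41 CPM in ESCs, and its log2 ratio of 0.87 was the largest of the 10. Cells were at 0, 17.0 and 55.9 CPM (lowest, median, highest) in ffEPSCs, against 0, 3.16 and 40.1 CPM in ESCs. It had 1 CPM in 21 of 25 ffEPSCs and 10 of 16 ESCs, which is 84.0% and 62.5%. The exact Clopper-Pearson intervals were 63.9% to 95.5% and 35.4% to 84.8%. They take cells as independent, but the cells of a state share a library, so they do not compare the states. ASXL1, a chromatin protein that works with the histone deubiquitinase BAP1, was the least abundant of the 10, at 8.15 CPM in ffEPSCs and 5.04 CPM in ESCs, a log2 ratio of 0.60 over all cells that was -0.26 in set 1 and -2.22 in set 3. The median cell for ASXL1 was at 6.53 CPM in ffEPSCs and 0.290 CPM in ESCs, with highest cells at 36.8 CPM and 28.4 CPM in the same order. ASXL1 had 1 CPM in 18 of 25 ffEPSCs and 7 of 16 ESCs, the same numbers as after thinning each cell to 11000000 counts. PDRG1, a prefoldin-like subunit of the R2TP chaperone complex, was at 45.4 CPM in ffEPSCs and 34.0 CPM in ESCs, a log2 ratio of 0.41. Its cells had a median of 45.1 CPM between 1.97 and 85.5 CPM in ffEPSCs, and a median of 30.6 CPM between 1.02 and 58.0 CPM in ESCs.

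**Figure D1:**
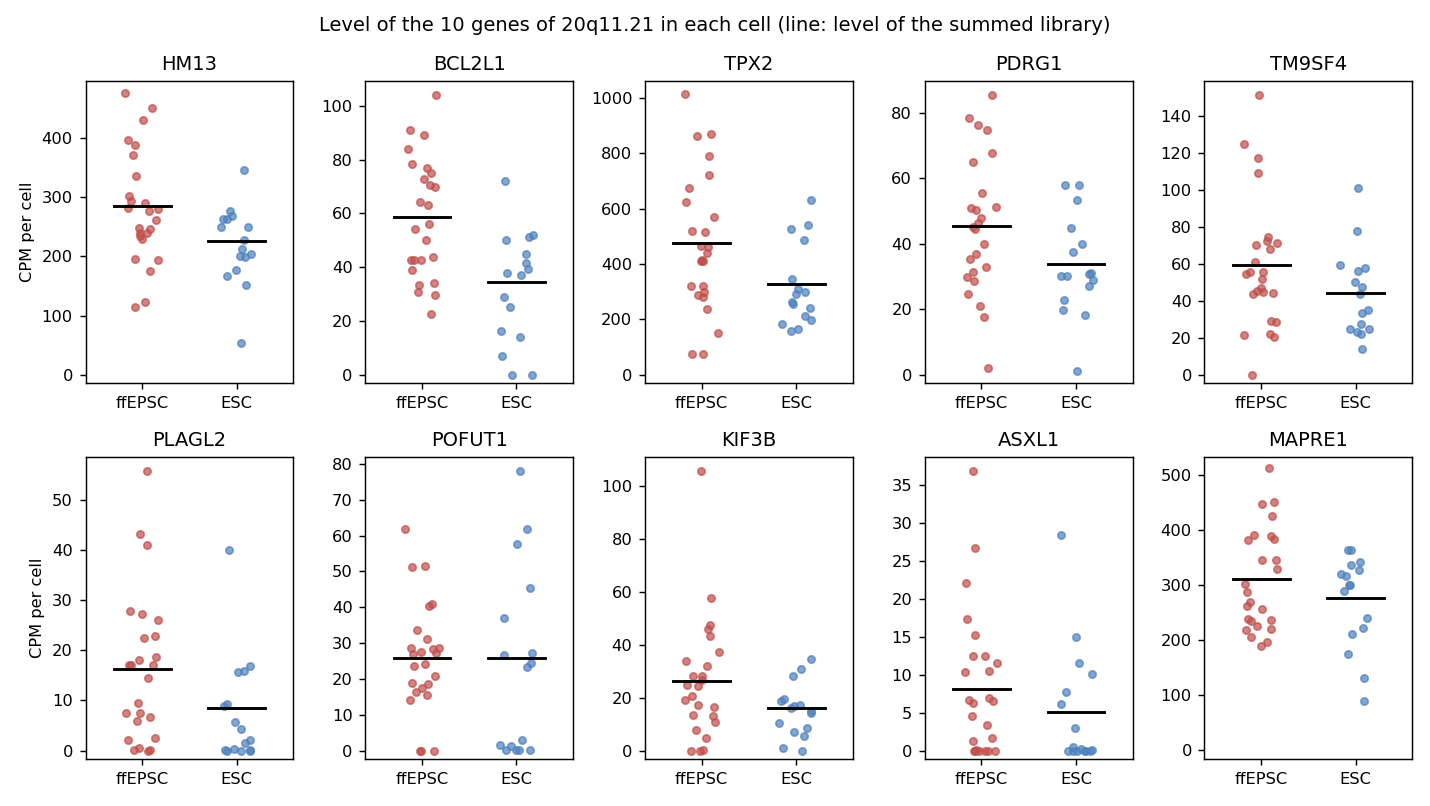
Level of each of the 10 genes in each cell (CPM, 1 panel per gene), with 25 ffEPSCs left of 16 ESCs and a line at the level of the summed library. The cells of the states overlap for every gene, and the line is higher in ffEPSCs for 9 genes and at 25.9 CPM in both states for POFUT1.

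The number of genes at least 1.5-fold higher in ffEPSCs was 4 of 10, PLAGL2, BCL2L1, KIF3B and ASXL1, against 19.8% of all measured genes, where folds are ratios of CPM with nothing added. Without the 4 shallow ESCs 2 of the 10, PLAGL2 and ASXL1, were 1.5-fold higher, against 18.5% of measured genes, so that count stood at the background. ASXL1 itself was lower in ffEPSCs within sets 1 and 3, at -0.26 and -2.22 on the log2 scale. None of the 10 was 2-fold higher, a size that 9.41% of measured genes reached, and none was 1.5-fold or 2-fold lower, against 14.4% and 6.93%. For 0 of the 10 did the cells of the states separate fully, as they did for 0.212% of measured genes. On chromosome 20 outside the stretch 33.2% of 268 measured genes were at least 1.5-fold higher, so the 4 of 10 stand close to the share of their chromosome.

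Scaled per kb of exon, the order within the ffEPSCs was TPX2, MAPRE1, HM13, PDRG1, BCL2L1, TM9SF4, KIF3B, POFUT1, PLAGL2 and ASXL1, with levels from 132 down to 0.596 CPM per kb. In the ESCs MAPRE1 stood before TPX2 and POFUT1 before KIF3B, with levels from 106 down to 0.369 CPM per kb, and the order was otherwise the same. Neighbours in this order overlapped in the middle quartiles of their cells in both states, except MAPRE1 and HM13, TM9SF4 and KIF3B, and PLAGL2 and ASXL1 in ffEPSCs, and TPX2 and HM13 in ESCs.

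The stretch lists 17 further genes besides the 10, of which 4 were measured. ID1, an inhibitor of basic helix-loop-helix transcription factors that responds to BMP signals, was at 791 CPM in ffEPSCs and 175 CPM in ESCs, a log2 ratio of 2.17. DNMT3B, a de novo DNA methyltransferase of pluripotent cells, was at 586 CPM and 427 CPM, a log2 ratio of 0.46. COMMD7 was at 42.6 CPM in ffEPSCs and 36.9 CPM in ESCs, and NOL4L at 15.4 CPM and 19.1 CPM, with log2 ratios of 0.20 and -0.30. The ratios inside the stretch therefore reached from below 0 to above 2 on the log2 scale, and only ID1 of these 4 exceeded every one of the 10.

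Along chromosome 20 the ratios were above 0 on both arms. The median log2 ratio was 0.30 over 97 measured genes of the short arm and 0.41 over 171 genes of the long arm outside the stretch. In windows of 5 Mb the medians lay between 0.16 and 0.65, and the window from 30 to 35 Mb, which holds the 10 genes, had 0.41, or 0.40 without them. The windows from 35 to 40, 55 to 60 and 60 to 65 Mb were higher, at 0.49, 0.65 and 0.56. The window that holds the 10 genes was thus not the highest on the chromosome. Among 23 chromosomes, chromosome 20 ranked 2 by median log2 ratio over all its measured genes, at 0.39, after chromosome 22 at 0.48 and before chromosomes 11, 14 and 5 at 0.34, 0.33 and 0.31. Chromosome 19 came next, at 0.09.

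**Figure D2:**
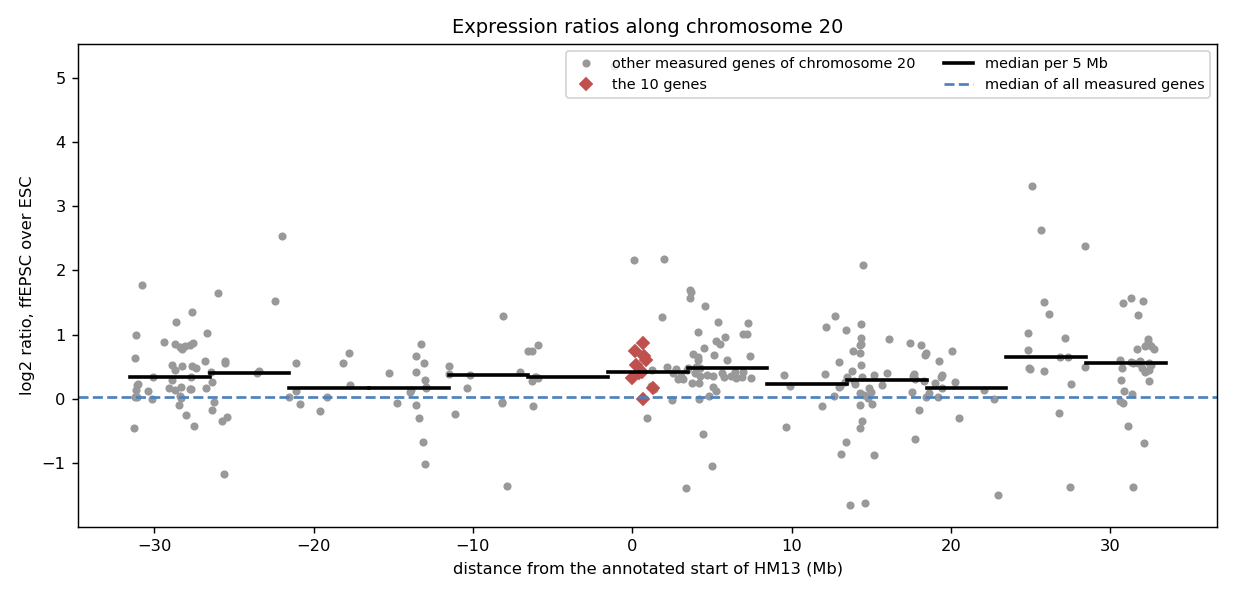
Log2 ratio (ffEPSC over ESC) of the measured genes of chromosome 20 against their distance from the start of HM13 in Mb, with the 10 genes as diamonds, black lines for the median of each 5 Mb window and a dashed line at the median of all measured genes, 0.04. The black lines lie above the dashed line along the whole chromosome, between 0.16 and 0.65, and the 10 genes lie within the scatter of the others.

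The same question was put to each cell. The shift of a cell is the mean, over a set of genes, of its log2(CPM + 1) minus the mean of the ESCs (of the other ESCs for an ESC), minus the cell's median autosome. Over the 10 genes the shift had a median of 0.75 in ffEPSCs, between -1.45 and 1.55, and of 0.08 in ESCs, between -0.84 and 0.81. Of the 25 ffEPSCs 10 lay above every ESC. Over the 8 genes with 20 CPM over all cells, all but PLAGL2 and ASXL1, the medians were 0.60 and 0.14. Over 170 other genes of chromosome 20 with 20 CPM the median was 0.59 in ffEPSCs and 0.07 in ESCs, and 20 of 25 ffEPSCs lay above every ESC. The 8 genes minus these others gave a median difference of 0.17 in ffEPSCs and 0.04 in ESCs. It was above 0 in 14 of 25 ffEPSCs and 10 of 16 ESCs. Over the 12 ESCs that were not shallow its median was 0.16, close to that of the ffEPSCs, and 10 of the 12 were above 0. Over the 4 shallow ESCs its median was -0.52. In 3 ffEPSCs this difference was larger than in any ESC. All 3 were among the 7 ffEPSCs least shifted on other chromosomes, and 0 among the other 18.

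Cells high on the rest of chromosome 20 were mostly also high in the 8 genes, with a Pearson r of 0.68 over 25 ffEPSCs and 0.87 over 16 ESCs. The cells of a state share a library, and both measures share the cell's depth. In ESCs the shift of the 8 genes had a Pearson r of 0.89 with the cell's gene counts, against 0.08 in ffEPSCs. The 4 shallow ESCs were the 4 lowest ESCs over the 10 genes, between -0.84 and -0.78. Without them the median log2 ratio of the 10 genes was 0.37 and that of the rest of the chromosome was 0.31.

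Chromosomes 5, 11, 14 and 22, which hold none of the 10 genes, served to separate the ffEPSCs. In 7 ffEPSCs the mean shift over these chromosomes was below 0.3, and 18 lay above. In the 7 cells the median log2 ratio over ESCs was 0.08 for the 10 genes and 0.14 for the rest of chromosome 20. In the 18 cells it was 0.60 for the 10 genes and 0.45 for the rest. By the shift per cell, the medians in the 7 cells were 0.36 for the 8 genes with 20 CPM and 0.09 for the rest. The difference per cell had a median of 0.22, between -1.26 and 0.65, and was above 0 in 4 of the 7. Summed levels and shifts per cell thus differed in direction there. In the 18 cells the median shifts were 0.71 and 0.62, and the difference had a median of 0.13, between -0.51 and 0.52. The 10 genes and the rest of the chromosome were thus both lower in the 7 cells, and 8 of the 10 genes had a larger ratio in the 18 cells than in the 7. So did 79.1% of the 268 other genes of chromosome 20 and 47.8% of all measured genes, so the 8 of 10 stand close to the share of their chromosome. BCL2L1 had log2 ratios of 0.59 in the 7 cells and 0.81 in the 18, PLAGL2 of 0.53 and 0.99, and KIF3B of 0.53 and 0.71. ASXL1, HM13 and MAPRE1 were lower than in ESCs in the 7 cells, at -0.52, -0.16 and -0.24, and higher in the 18, at 0.88, 0.49 and 0.30. PDRG1 and POFUT1 were the exceptions, with 0.50 and 0.01 in the 7 cells against 0.37 and -0.00 in the 18. Over the rest of chromosome 20, the 18 cells all lay above every ESC. The mean shift over chromosomes 5, 11, 14 and 22 had a Pearson r with that of the rest of chromosome 20. It was 0.93 over 25 ffEPSCs and 0.84 over 16 ESCs, so the split also sorted the cells by chromosome 20.

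**Figure D3:**
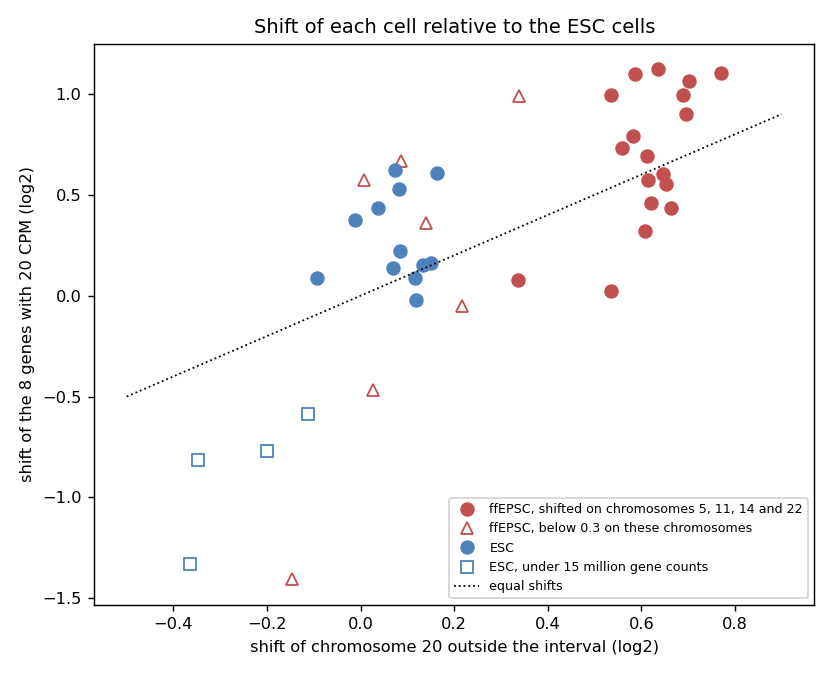
Shift of each cell relative to the ESCs (log2), for the 8 genes with 20 CPM on the vertical axis and for chromosome 20 outside the stretch on the horizontal axis, with 18 ffEPSCs as filled red circles, 7 ffEPSCs below 0.3 on chromosomes 5, 11, 14 and 22 as open triangles, 12 ESCs as blue circles and 4 shallow ESCs as squares. The 18 ffEPSCs lie right of every ESC, with a median of 0.62 on the horizontal axis, and spread widely on the vertical one.

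Within the 2 sets that hold both states the picture was not uniform. In set 1, with 3 ffEPSCs and 7 ESCs, 7 of the 10 genes were higher in ffEPSCs, against 53.2% of measured genes, and the median log2 ratio was 0.32, against 0.39 for the rest of chromosome 20. In set 3, with 2 ffEPSCs and 9 ESCs, 5 of the 10 were higher, against 47.3% of measured genes, with a median of -0.06 against -0.04 for the rest. In set 3, 1 of the 2 ffEPSCs was the lowest of all 25, at -1.45. BCL2L1, PLAGL2, KIF3B and MAPRE1 were higher in ffEPSCs within both sets, at 0.63, 1.31, 0.45 and 0.08 in set 1 and 0.46, 0.74, 0.67 and 0.02 in set 3. ASXL1 was lower in ffEPSCs within both, at -0.26 and -2.22, and TM9SF4 likewise at -0.58 and -0.15. HM13, TPX2 and PDRG1 were higher in ffEPSCs in set 1, at 0.73, 0.18 and 0.96, and lower in set 3, at -0.34, -0.29 and -0.51. POFUT1 had -0.13 in set 1 and 0.27 in set 3. In set 3 PLAGL2 and KIF3B were at 18.1 and 47.3 CPM in 1 ffEPSC and at 0.123 and 0.369 CPM in the other. Sets 2 and 4 hold ffEPSCs only, so set and state cannot be told apart there. Sets also differed within a state: the log2 ratio of set 3 over set 1 among ESCs reached 1.11 in size, for PLAGL2, and that of set 4 over set 2 among ffEPSCs reached 0.77, for KIF3B. For 3 of the 10 genes, HM13, BCL2L1 and TPX2, the ratio between states was larger in size than both set differences of the same gene.

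**Figure D4:**
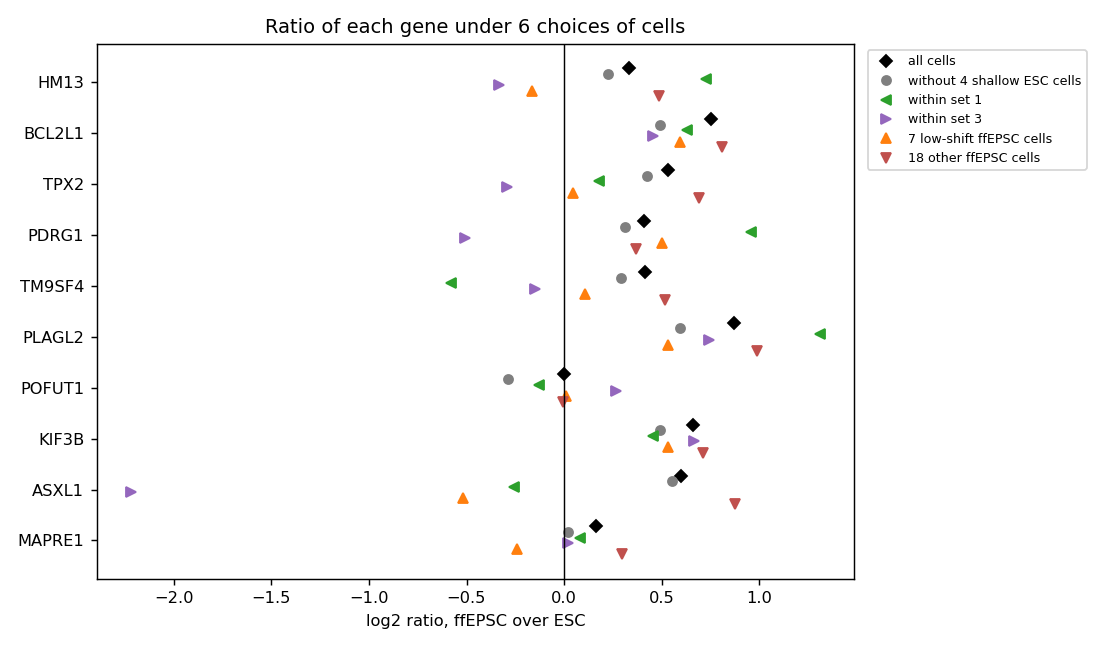
Log2 ratio (ffEPSC over ESC) of each of the 10 genes over all cells, without the 4 shallow ESCs, within set 1, within set 3, and with only the 7 or only the 18 ffEPSCs separated by chromosomes 5, 11, 14 and 22. BCL2L1, PLAGL2 and KIF3B lie right of 0 under all 6 choices, and ASXL1 reaches from -2.22 to 0.88.

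Correlations over cells are given as a description, since the cells of a state share a library. Over the 41 cells, after subtracting each state's mean, the 45 pairs had a median Pearson r of 0.25, and 43 were above 0. The shallow ESCs are among these cells, and their part in the r of the pairs was not tested. The highest r of a pair was 0.55, for BCL2L1 and MAPRE1. The divergent pair PLAGL2 and POFUT1 had an r of 0.27, close to that median. The genes most like each of the 10 were sought among genes with 20 CPM. For TPX2 they were KIF20A, CCNF and CDC20, 3 genes of mitosis and the cell cycle, with r of 0.81, 0.80 and 0.74. BCL2L1 was most like the amino acid transporter SLC7A8, with r of 0.89, or 0.67 over the 37 cells without the shallow ESCs. HM13 was most like GCAT at 0.80, PDRG1 like TSEN54 at 0.79, TM9SF4 like ANAPC4 at 0.73, MAPRE1 like NEU1 at 0.72 and KIF3B like AGO2 at 0.71. Over the 37 cells these were 0.68, 0.71, 0.73, 0.56 and 0.64 in the same order. POFUT1, PLAGL2 and ASXL1 had weaker best matches over the 41 cells, LMF2 at 0.68, DDR1 at 0.62 and ARHGAP5 at 0.54. Over the 37 cells they were at 0.60, 0.59 and 0.55. Among the 3 best matches of each gene SERINC3, the third for POFUT1, is the 1 that lies on chromosome 20. Of the 6504 genes searched, 2.66% lie on this chromosome. For each of the 10 genes the median r was higher with chromosome 20 outside the stretch than with all genes searched. With chromosome 20 outside the stretch it ran from 0.01 for ASXL1 to 0.27 for BCL2L1. With all genes searched it ran from -0.03 to 0.14 for the same genes. The median r of 0.25 over the 45 pairs thus lay above the values for all genes searched, but within those for the rest of the chromosome.

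The partners of the 10 genes were read from lists. Of 12 measured members of the BCL2 family, which sets the threshold for apoptosis, 9 were higher in ffEPSCs and 6 exceeded 1.5-fold, against 52.9% and 19.8% of all measured genes. The median log2 ratio of the family was 0.52, and 1 member was 1.5-fold lower. HRK, which promotes apoptosis, was at 43.3 CPM in ffEPSCs and 2.58 CPM in ESCs, a log2 ratio of 3.63. BIK, likewise, was at 20.2 CPM and 3.90 CPM, and PMAIP1 (NOXA) at 413 CPM and 236 CPM, with log2 ratios of 2.12 and 0.80. BID, which links death receptors to mitochondria, was lower in ffEPSCs, at 45.3 CPM against 133 CPM in ESCs, a log2 ratio of -1.53. None of the measured BCL2 family members on the list lies on chromosome 20. BID, BIK and BCL2L13 lie on chromosome 22 and BAD on chromosome 11, both used above to separate the ffEPSCs. HRK, BIK and PMAIP1 were also higher, and BID lower, in the 7 ffEPSCs with little shift, at 2.68, 1.78, 0.86 and -2.16. The other 3 of the 6 genes, named after their values were seen, were BAX and BAK1, which promote apoptosis, at log2 ratios of 0.65 and 0.63, and MCL1, which like BCL2L1 inhibits it, at 0.60. BAX was lower in ffEPSCs within set 3, at -0.40, and was at 0.01 in the 7 ffEPSCs with little shift. In these 7 cells BAK1 and MCL1 were at 0.63 and 0.54. BCL2L13 was at -0.71 there, against 0.44 over all cells. Genes that promote and genes that inhibit apoptosis were thus both among the higher members of the family.

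The spindle partners of TPX2 had a median log2 ratio of 0.12 over 14 measured genes, with 2 at least 1.5-fold higher and 0 lower, against 19.8% and 14.4% of all measured genes. AURKA, the kinase that TPX2 activates, which also lies on chromosome 20, was at 378 CPM in ffEPSCs and 222 CPM in ESCs, and PLK1 at 382 CPM and 239 CPM, with log2 ratios of 0.77 and 0.67. Within sets 1 and 3 AURKA was at 0.32 and 0.07, and PLK1 at 0.76 and 0.64. RAN and AURKB were lower over all cells, at -0.50 and -0.41. The G2 and M genes, 14 measured, had a median of -0.03. Partners of MAPRE1 at the plus end had a median of 0.12 over 9 genes, and partners of KIF3B in kinesin-2 and ciliary transport one of -0.06 over 9, and 0 of the measured genes of either list were 1.5-fold apart.

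The 10 measured genes of signal peptide peptidases and degradation at the endoplasmic reticulum, the setting of HM13, had a median of -0.27, with SPPL3 at 0.77 and SYVN1 at -0.57. Of 9 measured genes of NOTCH fucosylation and signalling, around POFUT1, the median was 0.03. The ligand JAG2 was higher at 1.85 and the ligand DLL3 lower at -1.11. JAG2 was at 5.11 CPM in ffEPSCs, just above the floor of 5 CPM, and at 0.701 CPM in ESCs. In sets 1 and 3 JAG2 was at 1.54 and 1.56, and DLL3 at -0.34 and -3.46. Of 8 measured genes of the ASXL and BAP1 group the median was 0.06. ASXL2, a paralogue of ASXL1, was at 45.8 CPM in ffEPSCs and 23.3 CPM in ESCs, a log2 ratio of 0.94. KDM1B and MBD5 were lower over all cells, at -0.94 and -0.83. In sets 1 and 3 KDM1B was at -2.76 and 0.25, and MBD5 at -0.01 and -3.19. The 12 measured prefoldin and R2TP partners of PDRG1 had a median of -0.05, with UXT at 0.86 and RPAP3 at -0.57. PLAG1, a paralogue of PLAGL2, was at 11.6 CPM in ffEPSCs and 5.02 CPM in ESCs, a log2 ratio of 1.06. The median cell of PLAG1 went the other way, at 2.82 CPM in ffEPSCs and 3.74 CPM in ESCs. Its highest cells were at 73.7 CPM and 13.6 CPM in the same order. Of these lists, the medians other than that of the BCL2 family lay between -0.27 and 0.18, below the 0.47 of the 10 genes.

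**Figure D5:**
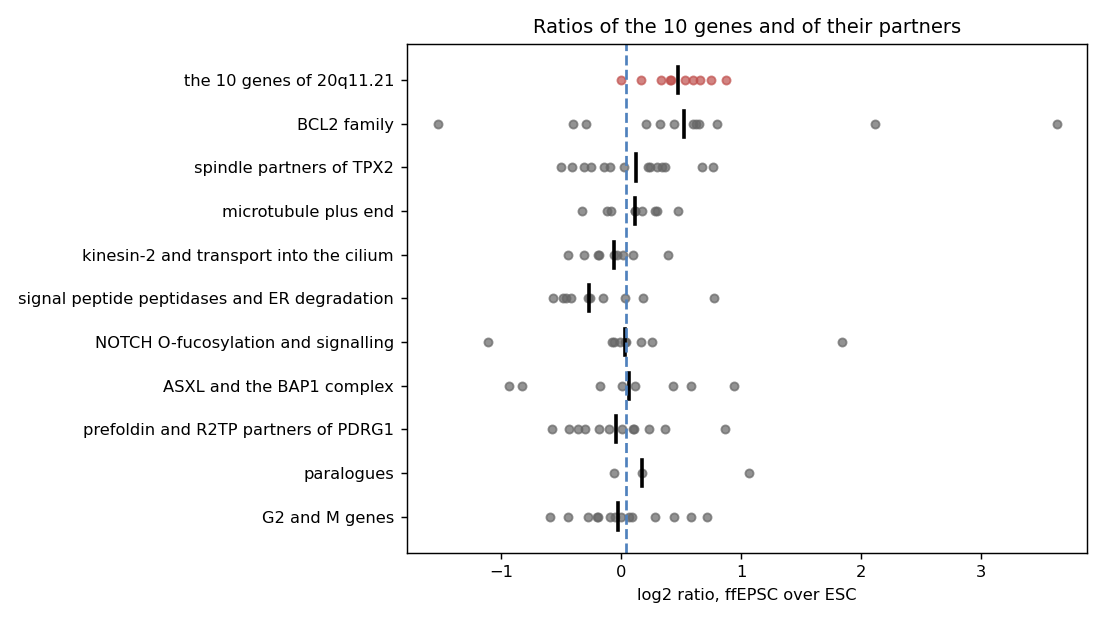
Log2 ratio (ffEPSC over ESC) of the 10 genes, in the top row, and of the measured members of each list of partners below, with a black bar at each median and a dashed line at the median of all measured genes, 0.04. The median is 0.47 for the 10 genes and 0.52 for the BCL2 family, and from -0.27 to 0.18 for the other lists.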

How the data were processed

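Each state was deposited by the authors as a table of whole-number counts per gene and cell, not normalized. The labels' protocols name Smart-seq2 for the libraries. Per the submitters' processing notes, the tools were HISAT2 2.2.1, bcl2fastq, featureCounts, Subread 2.0.6 and SAMtools 1.6, with GRCh38 and T2T-CHM13 as builds and no role for any of them. Whether counting used strand is not stated there, so reads of BCL2L1 and HM13 cannot be told from those of their antisense genes, which were at under 1 CPM. Repeat tables were not used here. Of non-zero counts, 98.4% (ffEPSC) and 98.5% (ESC) were even, as they would be if each pair of reads counted as 2, which makes the counting intervals too narrow.

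Counts were summed per library, scaled to CPM and compared as log2 ratios after adding 1 CPM. GENCODE version 29 placed 21170 of 22474 genes. Genes of chromosomes needed 5 CPM in at least 1 library, or 20 CPM over all cells for per-cell shifts. Intervals are exact Poisson for levels and exact Clopper-Pearson for shares, at 95%. With 1 sample per state, edgeR 4.0.16 (R 4.3.3) gave only scaling factors. Other steps used Python 3.11.15, pandas 2.3.3 and scipy 1.17.1, and were tested on simulated data. Cells were not clustered, none was removed and doublets were not called.

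The 10 genes and the lists were chosen with earlier results of these data known. Named besides the 10 were measured genes inside the stretch, up to 3 genes most like each member and up to 4 list genes with the largest ratios. The split of ffEPSCs by chromosomes 5, 11, 14 and 22 also came from earlier results. Alternatives were other scalings, pseudocounts, floors and choices of cells.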

Additional observations from a re-analysis of the deposited data

How the results depend on the processing

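The median log2 ratio of the 10 genes, 0.47, was 0.50 for the mean of the cells, 0.43 with TMM and 0.42 with median-of-ratios scaling, and the last pair moved the median of all measured genes by less than 0.1. It was 0.32 in set 1, -0.063 in set 3, 0.37 without the shallow ESCs, 0.076 with the 7 ffEPSCs only and 0.41 over the 8 genes with 20 CPM, a choice added after seeing the data. The 4 genes at least 1.5-fold higher became 2 in set 3, 2 without the shallow ESCs and 1 with the 7 ffEPSCs, against 21.1%, 18.5% and 19.2% of measured genes. For chromosome 20 outside the stretch, 0.38 became 0.40 for the mean of the cells, 0.38 with a pseudocount of 0.1 CPM, 0.34 with TMM, 0.32 with median-of-ratios scaling, 0.22 with no floor, 0.36 with a floor of 20 CPM, 0.39 in set 1, -0.042 in set 3, 0.31 without the shallow ESCs and 0.14 with the 7 ffEPSCs. The difference between the 10 genes and the rest, 0.10, was 0.25 with no floor, 0.12 with a floor of 20 CPM, 0.059 without the shallow ESCs, -0.069 in set 1, -0.021 in set 3 and -0.067 with the 7 ffEPSCs. The median shift of the ffEPSCs, 0.75, was 1.02 with a pseudocount of 0.1 CPM, 0.71 in set 1, -0.43 in set 3, 0.49 without the shallow ESCs, 0.54 with the 7 ffEPSCs and 0.60 over the 8 genes. ASXL1, at 0.60, was at -0.26 in set 1, -2.22 in set 3 and -0.52 with the 7 ffEPSCs. BCL2L1, PLAGL2 and KIF3B were above 0 in 8 of 8 settings. Of these settings, the mean of the cells, the pseudocount and the other scalings keep the same cells. In set 3 PLAGL2 and KIF3B were high in only 1 of the 2 ffEPSCs. The cause of the moves between settings was not tested. No paired analysis was possible because each state is 1 sample. Set 3 holds 2 ffEPSCs, so its values rest on them. Thinning each cell to 11000000 counts left the numbers of cells with 1 CPM of ASXL1 and PLAGL2 as they were.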
